A study of Homo sapiens with 15 samples.

Results

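The ERBB receptors, their ligands and the inhibitor ERRFI1 were followed in a human breast cancer cell line, MDA-MB-231, after YAP, TAZ or both had been silenced. The 9 genes, found by their symbols among the 18858 genes of the count table, are the receptors EGFR, ERBB2 and ERBB3, the ligands AREG, EREG, HBEGF, TGFA and NRG1, and ERRFI1. Polyadenylated RNA was sequenced from 5 groups of 3 libraries each. Control cells were not transfected, and siControl cells received a non-targeting siRNA pool. The siYAP and siTAZ cells received a pool against YAP1 or against WWTR1, the gene that encodes TAZ, and the siYAP+TAZ cells received both. Pools were used at 30 nM each, so that the co-knockdown cells received 60 nM in all, and the larger amount and the co-knockdown cannot be told apart. Transfected cells were kept for 48 h. Cells of all 5 groups, Control included, spent 5 to 6 h on gelatin before RNA was taken. Libraries 16, 21 and 26 are from Control cells, 17, 22 and 27 from siControl, 18, 23 and 28 from siYAP, 19, 24 and 29 from siTAZ, and 20, 25 and 30 from the co-knockdown. The study states that each condition was run in 3 independent sets of experiments, but not which libraries form one. The labels name no separate cultures, so p-values measure the spread between these libraries, which may in part be technical.

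Receptors of the ERBB family are cell surface tyrosine kinases that pair when a ligand binds and signal through RAS and ERK and through PI3 kinase and AKT. EGFR binds AREG, EREG, HBEGF and TGFA. ERBB2 has no known ligand of its own and acts as a partner, and ERBB3, a weak kinase, binds neuregulins such as NRG1. The ligands are made as membrane proteins and are released by ADAM proteases. ERRFI1, also called MIG6, binds the kinase domain of the receptors, inhibits it and is itself induced by their signalling. YAP and TAZ act in the nucleus through TEAD proteins, and AREG is a textbook YAP target in breast epithelial cells.

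The RNA of 4 of the 5 ligands changed in the co-knockdown, and that of 0 of the 3 receptors passed the test. In siYAP+TAZ against siControl, AREG rose 2.16-fold, EREG 2.03-fold, TGFA 1.54-fold and ERRFI1 1.43-fold, while HBEGF fell to 0.785 of its siControl level. EGFR, ERBB2, ERBB3 and NRG1 did not pass. These are 5 of 9 genes at an adjusted p of at most 0.05 (edgeR quasi-likelihood test with Benjamini-Hochberg adjustment over all 18858 genes), of which 4 rose and 1 fell. Of all genes, 18.4% passed, 9.97% upward and 8.39% downward. Among the 10640 genes averaging 100 or more normalized counts, which every one of the 9 but ERBB3 did, 26.7% passed. At an unadjusted p under 0.05 the share was 30.3% of all genes, and the same 5 of 9 had one. The siYAP+TAZ and siControl libraries did not overlap for these 5 genes, as for 36.4% of all genes. AREG and EREG also reached an absolute log2 fold change of 1, the threshold of the study for a differentially expressed gene, which 3.46% of all genes did. EREG stayed below that fold without siControl library 27 (0.78), without siYAP+TAZ library 25 (0.97) and against Control (0.94). AREG did so without library 27 (0.84). In neither single knockdown did any of the 9 pass in this edgeR fit. With a block of runs of consecutive library numbers in the fit, 3 passed in siYAP (6.1% of all genes) and 2 in siTAZ (10.3%).

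AREG and EREG lie side by side on chromosome 4, both on the forward strand, with 56.4 kb between them. In GRCh38 with GENCODE release 44, EREG spans chr4:74365145-74388749 and AREG chr4:74445136-74455005. HBEGF spans chr5:140332843-140346603 on the reverse strand. The 250 bases before the RefSeq start (GRCh38.p14) are printed for these 3 because they are the pair of ligands with the largest rises and the ligand that fell. Capitals mark matches, on either strand, to GGAATG (bound by TEAD proteins), TGANTCA (AP-1), TGACGTCA (the cyclic AMP response element) and TATAAA (the TATA box).
AREG, chr4:74444886-74445135, forward strand: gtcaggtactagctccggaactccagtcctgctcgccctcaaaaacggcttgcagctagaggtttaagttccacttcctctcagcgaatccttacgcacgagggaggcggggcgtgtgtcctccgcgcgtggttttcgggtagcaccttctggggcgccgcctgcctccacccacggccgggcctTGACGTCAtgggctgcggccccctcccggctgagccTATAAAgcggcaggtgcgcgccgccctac
EREG, chr4:74364895-74365144, forward strand: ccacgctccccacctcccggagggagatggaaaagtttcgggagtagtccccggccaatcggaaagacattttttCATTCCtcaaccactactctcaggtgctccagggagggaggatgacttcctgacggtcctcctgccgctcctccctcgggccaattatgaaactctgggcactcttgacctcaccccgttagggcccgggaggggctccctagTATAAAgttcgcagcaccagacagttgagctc
HBEGF, chr5:140346604-140346853, reverse strand: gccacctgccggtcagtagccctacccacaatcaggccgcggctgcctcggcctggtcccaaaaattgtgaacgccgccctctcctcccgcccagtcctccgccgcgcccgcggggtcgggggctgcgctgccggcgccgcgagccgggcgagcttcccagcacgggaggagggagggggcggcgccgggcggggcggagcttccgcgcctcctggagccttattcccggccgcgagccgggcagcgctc

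The AREG window holds TGACGTCA at -65 to -58 and TATAAA at -29 to -24, counted back from -1, the base before the start. The EREG window holds TATAAA at -32 to -27 and CATTCC, the reverse complement of GGAATG, at -175 to -170. None of the 4 motifs is in the HBEGF window. Over the 34788 windows of all promoters in the RefSeq table, 11.9% hold GGAATG, 6.59% TGANTCA, 1.64% TGACGTCA and 10.8% TATAAA. NRG1 was not looked up, and no window was found for ERBB3. The other 7 of the 9 genes had windows, and those of TGFA and ERRFI1 hold none of the 4 motifs. Matches also occur in genes that did not pass: the first of 2 EGFR windows holds none, the second holds 1 match to GGAATG, 2 to TGANTCA and 2 to TATAAA, and the ERBB2 window holds 1 to TGANTCA. A match describes the letters only, and these data do not measure the binding of any factor.

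AREG (amphiregulin), a ligand of EGFR, was higher in the 3 co-knockdown libraries than in all other libraries. Its normalized counts (raw counts scaled by the TMM-adjusted library size to the mean library) were 1159, 1076 and 884 in Control, 1329, 1359 and 652 in siControl, 1410, 1489 and 1274 in siYAP, 1522, 1760 and 1558 in siTAZ, and 2452, 2609 and 2171 in siYAP+TAZ. The siControl library 27 lay well below the other siControl libraries, and the siTAZ libraries lay above all siControl libraries without reaching those of the co-knockdown. In siYAP+TAZ the log2 fold change against siControl was 1.11 ± 0.214 (SE), with an adjusted p of 0.00334 by edgeR. With only the siYAP+TAZ and siControl libraries in the fit it was 1.12 and missed the threshold (adjusted p = 0.0656, edgeR). Without library 27 it was 0.84, and against the untransfected Control cells it was 1.21 (adjusted p = 0.00191, edgeR). The log2 fold change was 0.53 ± 0.214 in siTAZ (adjusted p = 0.242) and 0.32 ± 0.213 in siYAP (adjusted p = 0.626), neither past the threshold in edgeR.

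EREG (epiregulin), a low-affinity ligand of EGFR, had the same order of group means over siYAP, siTAZ and siYAP+TAZ at a lower level. It had 421, 381 and 235 normalized counts in Control, 398, 379 and 204 in siControl, 487, 526 and 354 in siYAP, 491, 699.6 and 458 in siTAZ, and 659.9, 719.8 and 627 in siYAP+TAZ. All co-knockdown libraries exceeded all siControl libraries, but the siTAZ library 24 lay within the co-knockdown range. The log2 fold change was 1.02 ± 0.267 in siYAP+TAZ (adjusted p = 0.0178), 0.74 ± 0.268 in siTAZ (adjusted p = 0.188) and 0.48 ± 0.267 in siYAP (adjusted p = 0.532) by edgeR. Without siControl library 27, which lay well below the other siControl libraries, the siYAP+TAZ value was 0.78 (adjusted p = 0.0394). Without the co-knockdown library 25 it was 0.97 and missed the threshold, with an adjusted p of 0.0536 in edgeR.

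**Figure D1:**
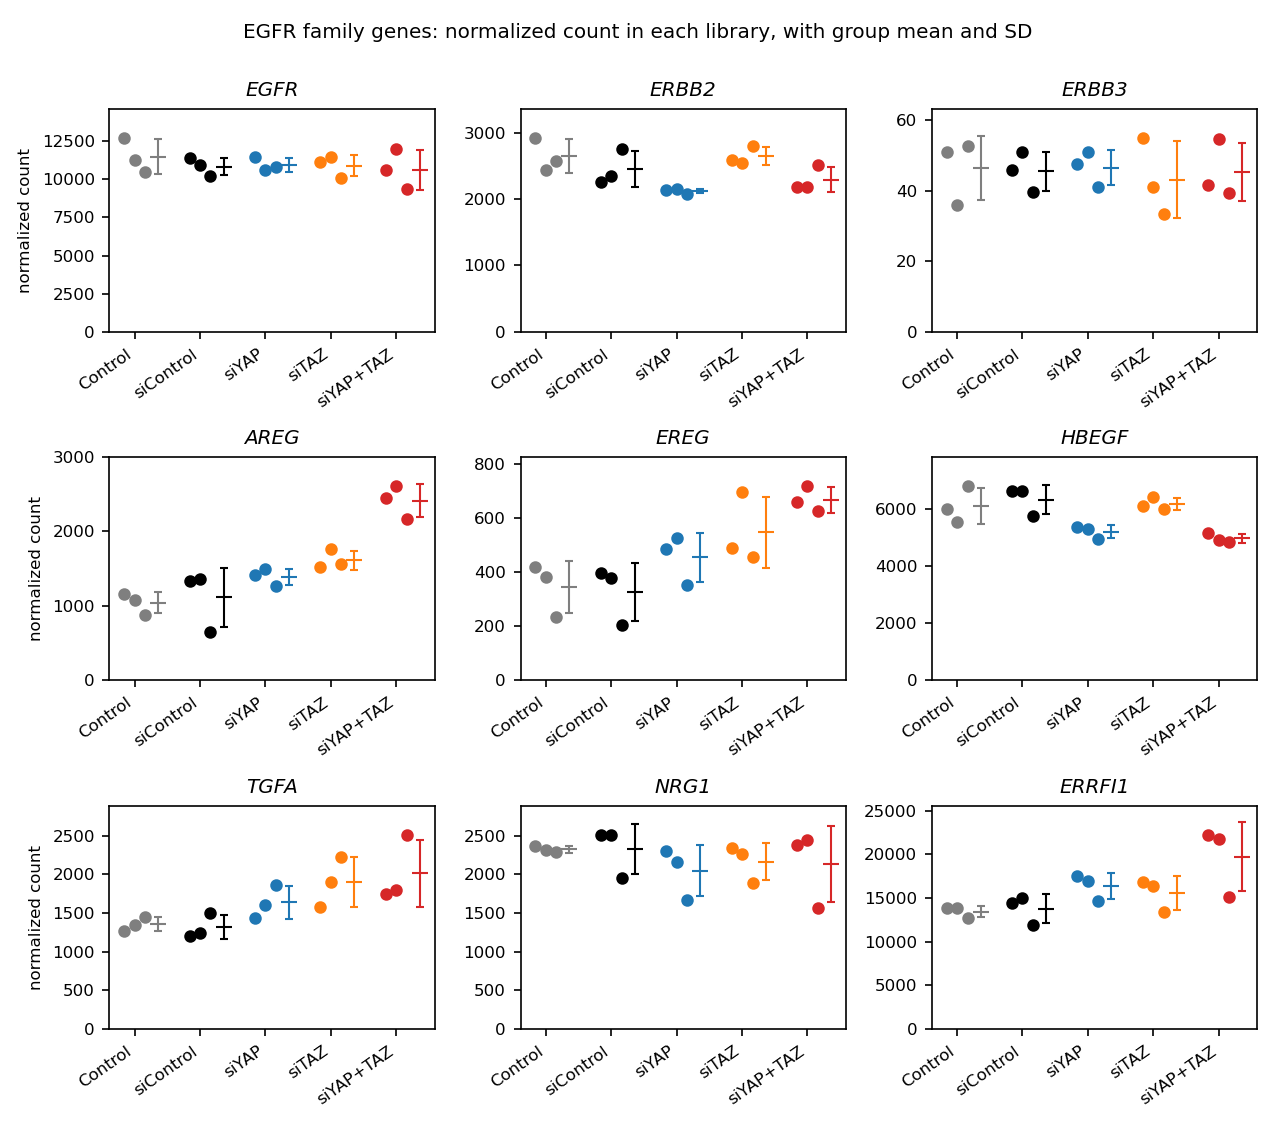
Normalized counts (linear axis from 0) of the 9 genes in each of 15 libraries, 1 panel per gene and 1 colour per group, with the group mean and SD (n = 3) to the right of the points. AREG, at 2171 to 2609 in siYAP+TAZ, lies above every other library, and HBEGF, at 4819 to 5151 in siYAP+TAZ, lies there below every siControl, Control and siTAZ library.

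The genes whose profile over the 15 libraries was most like that of AREG or EREG included the other gene of the pair. Likeness was measured as the root mean square difference of log2 CPM (reads scaled to a common total in each library) after each gene was centred, over 12929 genes with a mean CPM of at least 1, so that a small value means a similar course and a similar size of change. The 5 closest to AREG were IRF2BPL (0.153), DAAM1 (0.165), TSC22D1 (0.166), SYTL2 (0.169) and EREG (0.176). The 5 closest to EREG were SNAP91 (0.158), SLC6A9 (0.173), PDE4D (0.175), AREG (0.176) and DAAM1 (0.200). Among the other 7 genes, ERRFI1 ranked 373 in likeness to AREG, TGFA 1739 and HBEGF 9547. The points share libraries and normalization, and the ranks are a description. IRF2BPL had 1343 ± 265.4 normalized counts in siControl and 3511 ± 219 in siYAP+TAZ (SD, n = 3).

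TGFA (transforming growth factor alpha), a high-affinity EGFR ligand, was raised by a smaller factor. Its normalized counts were 1267, 1342 and 1453 in Control, 1205, 1244 and 1495 in siControl, 1441, 1609 and 1867 in siYAP, 1579, 1896 and 2230 in siTAZ, and 1740, 1791 and 2514 in siYAP+TAZ. Every siTAZ and every co-knockdown library lay above every siControl library, while siYAP overlapped siControl. The log2 fold change was 0.62 ± 0.152 in siYAP+TAZ (adjusted p = 0.0104), 0.53 ± 0.152 in siTAZ (adjusted p = 0.087) and 0.32 ± 0.152 in siYAP (adjusted p = 0.432) by edgeR. Without siTAZ library 19 the siTAZ value was 0.65 and passed (adjusted p = 0.0265, edgeR). The siTAZ and siYAP+TAZ values differed by 0.09 with a 95% interval of -0.24 to 0.41, so the data do not set them apart and do not show them to be equal.

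HBEGF, the heparin-binding ligand of EGFR and ERBB4, was the only ligand of the 5 that fell. It had 5980, 5527 and 6786 normalized counts in Control, 6605, 6605 and 5733 in siControl, 5351, 5298 and 4941 in siYAP, 6103, 6393 and 5983 in siTAZ, and 5151, 4900 and 4819 in siYAP+TAZ. The siYAP and co-knockdown libraries lay below all siControl, Control and siTAZ libraries. In siYAP+TAZ the log2 fold change was -0.35 ± 0.079 (adjusted p = 0.00438, edgeR). In siYAP it was -0.28 ± 0.079 and missed the threshold (adjusted p = 0.107, edgeR), and in siTAZ it was -0.04 with a 95% interval of -0.20 to 0.13 (adjusted p = 0.879). HBEGF was also the only 1 of the 9 genes that passed in this edgeR fit between the co-knockdown and a single knockdown, at -0.31 ± 0.079 against siTAZ (adjusted p = 0.0264, edgeR), a comparison in which 5.44% of all genes passed, 2.38% downward. That call was lost without siTAZ library 24 or 29 or without any one of the co-knockdown libraries, with adjusted p from 0.057 to 0.0898. The log2 fold change then stayed between -0.342 and -0.279.

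NRG1 (neuregulin 1), the ERBB3 ligand of the group, did not pass in any comparison. Its normalized counts ranged from 1948 to 2512 in siControl, 1671 to 2298 in siYAP, 1892 to 2340 in siTAZ and 1563 to 2446 in siYAP+TAZ. The groups overlapped, and the log2 fold change in siYAP+TAZ was -0.13 with a 95% interval of -0.47 to 0.22 (adjusted p = 0.661, edgeR). NRG1 has many isoforms from separate starts, and a count per gene does not separate them.

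Per length of transcript, HBEGF was the most abundant ligand in all libraries but 1, siYAP+TAZ library 25, where AREG (89.4) was above it (87.9). In CPM per kb of the Ensembl canonical transcript, siControl held 113 ± 9.03 of HBEGF, 38.2 ± 13.7 of AREG, 13.5 ± 1.62 of TGFA, 8.19 ± 1.14 of NRG1 and 3.0 ± 0.981 of EREG (SD, n = 3). In siYAP+TAZ HBEGF stood at 88.9 ± 3.10 and AREG at 82.6 ± 7.61, a difference within their spread. Of the summed level of the 5 ligands, HBEGF made up 62.3% to 68.9% in the siControl libraries and 41.7% to 44.3% in siYAP+TAZ, and AREG made up 14.97% to 24.5% and 37.6% to 42.4%. The single knockdowns lay between, with a mean AREG share of 28.2% ± 0.98 in siYAP and 27.9% ± 0.859 in siTAZ. The way the shares moved differed, since the HBEGF level was 93.2 in siYAP but 110.4 in siTAZ, where the summed level was 198 against 176 in siControl. The sums of the siControl libraries were 188.8, 190.1 and, in library 27, 149.2, and those of siTAZ ranged from 190.5 to 208.8, so the siTAZ range began just above the other siControl libraries. These shares describe RNA and not released ligand.

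**Figure D2:**
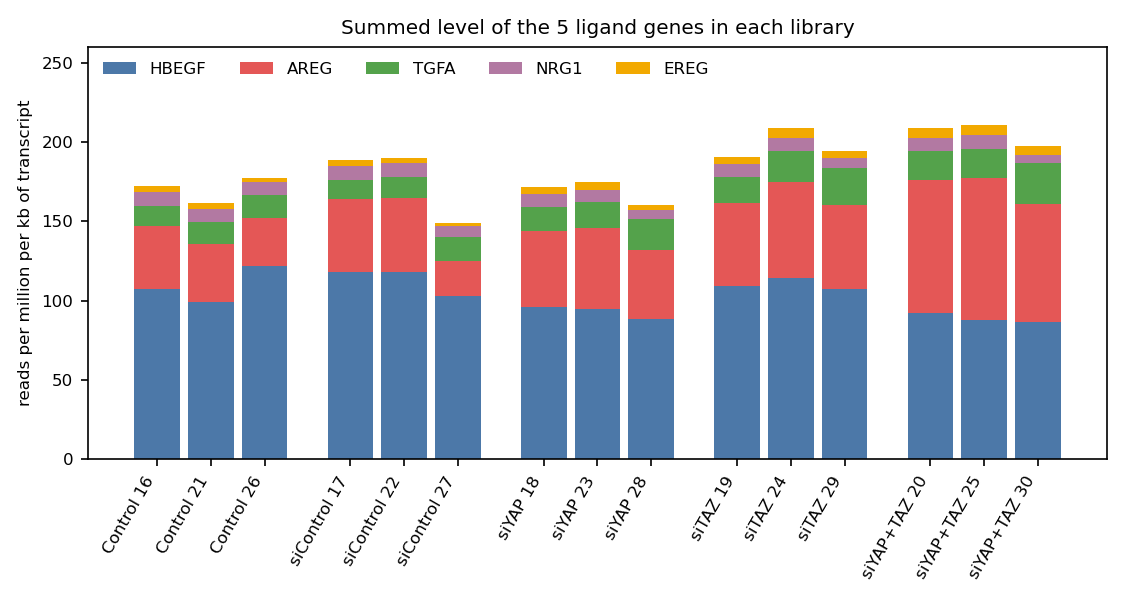
Level of the 5 ligand genes in each library in CPM per kb of canonical transcript (reads scaled to a common total, linear axis from 0), stacked, with 1 bar per library. The AREG segment is largest in the 3 siYAP+TAZ libraries, where the bars sum to between 198 and 211, and the mean of the HBEGF segment is smallest there.

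Among the receptors, EGFR was well expressed and did not pass in any comparison. EGFR (chr7:55019017-55211628) had 12723, 11229 and 10488 normalized counts in Control, 11362, 10920 and 10204 in siControl, 11461, 10597 and 10783 in siYAP, 11120, 11456 and 10101 in siTAZ, and 10612, 11947 and 9333 in siYAP+TAZ. All groups overlapped. The 95% interval of the log2 fold change was -0.17 to 0.20 in siYAP, -0.18 to 0.20 in siTAZ and -0.22 to 0.16 for the co-knockdown, so that changes beyond these bounds were not seen in these libraries.

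ERBB2, the partner receptor, differed between the single knockdowns by more than it did from siControl. That difference did not pass in the edgeR fit without a block. It had 2927, 2436 and 2574 normalized counts in Control, 2255, 2350 and 2754 in siControl, 2137, 2148 and 2083 in siYAP, 2588, 2552 and 2801 in siTAZ, and 2181, 2190 and 2510 in siYAP+TAZ. The siYAP libraries lay below all libraries of the other 4 groups. The log2 fold change was -0.21 ± 0.087 in siYAP against siControl (adjusted p = 0.331) and -0.32 ± 0.087 in siYAP against siTAZ (adjusted p = 0.105), and in siYAP+TAZ it was -0.10 with a 95% interval of -0.28 to 0.09 (adjusted p = 0.507) by edgeR. Of its exonic bases 6.93% lie opposite exons of MIEN1 and PGAP3, and whether the reads were counted by strand is not given in the sources used here.

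ERBB3 was near the limit of what these libraries measure. Its normalized counts lay between 33.4 and 55.1 over all 15 libraries, and its level in siControl was 0.343 CPM per kb against 46.2 for EGFR and 22.8 for ERBB2. The 95% interval of its log2 fold change in siYAP+TAZ, -0.49 to 0.47, is more than 2 times as wide as that of EGFR. ERBB4, the remaining receptor of the family, had no row in the count table.

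ERRFI1 was the most abundant of the 9 genes per length in every group. It had 13813, 13803 and 12705 normalized counts in Control, 14465, 14962 and 11901 in siControl, 17543, 16917 and 14698 in siYAP, 16888, 16406 and 13364 in siTAZ, and 22262, 21791 and 15148 in siYAP+TAZ. The co-knockdown libraries all exceeded the siControl libraries, but library 30 stood only slightly above the highest of them. The log2 fold change was 0.52 ± 0.133 in siYAP+TAZ (adjusted p = 0.0118), 0.25 ± 0.133 in siYAP (adjusted p = 0.494) and 0.17 ± 0.133 in siTAZ (adjusted p = 0.576) by edgeR. The co-knockdown value was 0.42 and missed the threshold without siControl library 27 (adjusted p = 0.0564) or without co-knockdown library 20 (0.0614), and it was 0.45 without library 25 (0.0519). With only the siYAP+TAZ and siControl libraries in the fit it was 0.53 and also missed it (adjusted p = 0.0597, edgeR). Without library 30 it was 0.68, and the co-knockdown then also passed against siYAP (0.42, adjusted p = 0.0389) and against siTAZ (0.51, adjusted p = 0.0128, edgeR).

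In the order of levels per length in siControl, ERRFI1 (188 ± 22.4) was followed by HBEGF, EGFR (46.2 ± 2.49), AREG, ERBB2 (22.8 ± 2.46), TGFA, NRG1, EREG and ERBB3. EGFR and AREG, neighbours in that order, did not differ beyond their spread in siControl, and neither did they in siYAP (46.7 ± 1.94 and 47.7 ± 3.71), while in siTAZ (55.3 ± 4.41 for AREG and 46.5 ± 3.01 for EGFR) and in siYAP+TAZ (82.6 ± 7.61 and 45.4 ± 5.58) every AREG value stood above every EGFR value. With all annotated exons as the length, TGFA ranked above ERBB2 in every group and EREG above NRG1 in siYAP+TAZ, so the order of these neighbours depends on the length used.

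**Figure D3:**
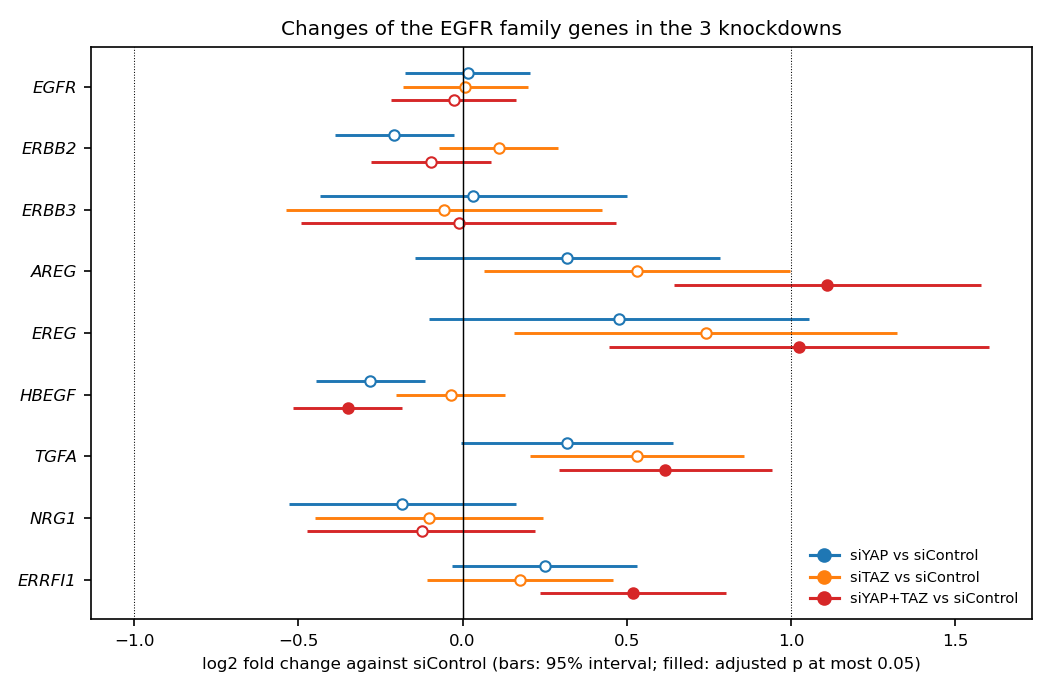
Log2 fold change of each of the 9 genes against siControl in the 3 knockdown groups, with 95% intervals from edgeR. Filled points mark an adjusted p of at most 0.05, and dotted lines mark a log2 fold change of 1 in each direction. The 5 filled points all belong to siYAP+TAZ.

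The single knockdowns were compared with siControl to see how far either factor alone moved these genes. In the edgeR fit without a block, 0 of 9 genes passed in siYAP, where 0.933% of all genes did. There 2 had an unadjusted p under 0.05 (HBEGF and ERBB2), as did 11.9% of all genes. In siTAZ 0 of 9 passed, where 2.03% of all genes did, and 3 had an unadjusted p under 0.05 (AREG, EREG and TGFA), as did 16% of all genes. DESeq2 called 1 gene in siYAP, HBEGF at -0.27 (adjusted p = 0.0451), where it called 2.12% of all genes. In siTAZ it called 2, EREG at 0.75 (adjusted p = 0.0466) and TGFA at 0.53 (adjusted p = 0.0222), and 4.25% of all genes. Every siYAP library lay below every siControl library for 2 genes and every siTAZ library above for 3, against 19.5% and 20.9% of all genes whose groups do not overlap. For siControl against Control, the effect of transfection, the count was 0 of 9 in edgeR with 0 of 9 at an unadjusted p under 0.05 (2.11% of all genes) and 0 by DESeq2, and 0% of all genes passed. Against Control as the reference the co-knockdown gave the same 5 calls as against siControl (19.4% of all genes passed). The knockdown comparisons share the siControl libraries.

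The co-knockdown was also compared with each single knockdown. Against siYAP 0 of 9 genes passed in the edgeR fit without a block, where 5.13% of all genes did. There 1 had an unadjusted p under 0.05 (19.2% of all genes). It was AREG, which was 0.79 ± 0.212 higher on the log2 scale (adjusted p = 0.0525, edgeR). DESeq2 called AREG (adjusted p = 0.00175) and 6.85% of all genes. Against siTAZ the AREG log2 fold change was 0.58 ± 0.212 (adjusted p = 0.152, edgeR), and DESeq2 called it (adjusted p = 0.0399), as it did HBEGF and 6.99% of all genes. WWTR1 was itself higher in every co-knockdown library (1123 to 1284 normalized counts) than in every siTAZ library (254 to 828), a log2 fold change of 1.13 ± 0.314 that did not pass (adjusted p = 0.0648, edgeR). Between siYAP and siTAZ 0 of 9 passed in the edgeR fit without a block, where 0.642% of all genes passed. There 2 had an unadjusted p under 0.05 (13.7% of all genes). DESeq2 called 0 of 9 and 1.88% of all genes.

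The interaction of the knockdowns asks whether the co-knockdown differs from the sum of the single effects on the log2 scale. It passed for 0 of 9 genes in edgeR, where 0.0106% of all genes passed, with 0 at an unadjusted p under 0.05 (5.85% of all genes). In DESeq2 it passed for 0 of 9 and for 0.111% of all genes. For WWTR1 itself it was 1.14 ± 0.432 with a 95% interval of 0.19 to 2.09 (adjusted p = 0.755, edgeR), and whether the depletion of TAZ RNA differed was not settled by these libraries. For AREG the interaction was 0.26 ± 0.300 with a 95% interval of -0.39 to 0.92, and for HBEGF it was -0.03 ± 0.112 with an interval of -0.27 to 0.20. The intervals of AREG and EREG (-1.0 to 0.62) span effects as large as the single knockdowns, so neither an excess over the sum nor a shortfall could be told from these libraries.

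The labels were checked on the siRNA targets. YAP1 had 4431, 4333 and 4202 normalized counts in siControl, 1013, 2764 and 761 in siYAP and 2240, 2202 and 1796 in siYAP+TAZ. WWTR1 had 1995, 1850 and 1579 in siControl, 828, 254 and 521 in siTAZ and 1133, 1123 and 1284 in siYAP+TAZ. Each target was lower in every library labelled with its siRNA than in every siControl library. In the co-knockdown the log2 fold change was -1.06 ± 0.366 for YAP1 (adjusted p = 0.0723) and -0.62 ± 0.301 for WWTR1 (adjusted p = 0.199) by edgeR, and WWTR1 in siTAZ (-1.74, adjusted p = 0.0187) was the only one of the 4 to pass. Of 12 listed YAP/TAZ targets, 10 fell and 1 rose in siYAP+TAZ, where 8.39% of all genes fell and 9.97% rose. Among them ANKRD1 fell by 1.36, CCN1 by 1.17, CCN2 by 0.99 and CRIM1 by 0.86 on the log2 scale, and the one that rose was AMOTL1 (0.23).

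Of the genes that ERK signalling is known to induce, several that feed back on it rose in siYAP+TAZ. The list holds 22 genes, of which 10 rose, 1 fell and 11 did not pass in edgeR against siControl, where 9.97% of all genes rose and 8.39% fell, with a median log2 fold change of 0.37 against -0.005 over all genes. In siYAP 1 of the 22 passed in edgeR and in siTAZ 0 (0.933% and 2.03% of all genes), with 1 and 2 at an unadjusted p under 0.05 (11.9% and 16% of all genes). Among those that passed, the genes with the largest changes were EGR2 (1.36 ± 0.459, adjusted p = 0.0485), an early response transcription factor with only 16.9 ± 4.77 normalized counts in siControl and 44.5 ± 14.7 in siYAP+TAZ, and SPRED3 (0.91 ± 0.122, adjusted p = 4.81e-05), an inhibitor of RAS to ERK signalling. DUSP4, a phosphatase of ERK, rose from 9749 ± 1672 to 15360 ± 2170 (log2 fold change 0.66, adjusted p = 0.0219, edgeR), and IER3, an early response gene, from 8211 ± 1514 to 12930 ± 1740 (0.65, adjusted p = 0.00941). SPRED3 was also the gene that passed in siYAP (0.56, adjusted p = 0.0324, edgeR), and in siTAZ its log2 fold change was -0.15 (adjusted p = 0.623). The gene that fell was DUSP7 (-0.26, adjusted p = 0.0308, edgeR), also a phosphatase of ERK. Against untransfected Control cells 9 of the 22 rose and 0 fell in edgeR, where 19.4% of all genes passed, so the DUSP7 call depends on which control is used. EGR3, an early response transcription factor, had a larger value than SPRED3 against siControl but did not pass (1.14, adjusted p = 0.0832, edgeR). The early response genes FOS (0.20, adjusted p = 0.824), EGR1 (0.19, adjusted p = 0.776) and MYC (-0.38, adjusted p = 0.246), like EGR3 named after their values were seen, did not pass. Nor did the other DUSP genes of the list, likewise named late, by edgeR. They were DUSP1 (-0.755, adjusted p = 0.24), DUSP5 (0.096, adjusted p = 0.706) and DUSP6 (0.562, adjusted p = 0.15).

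**Figure D4:**
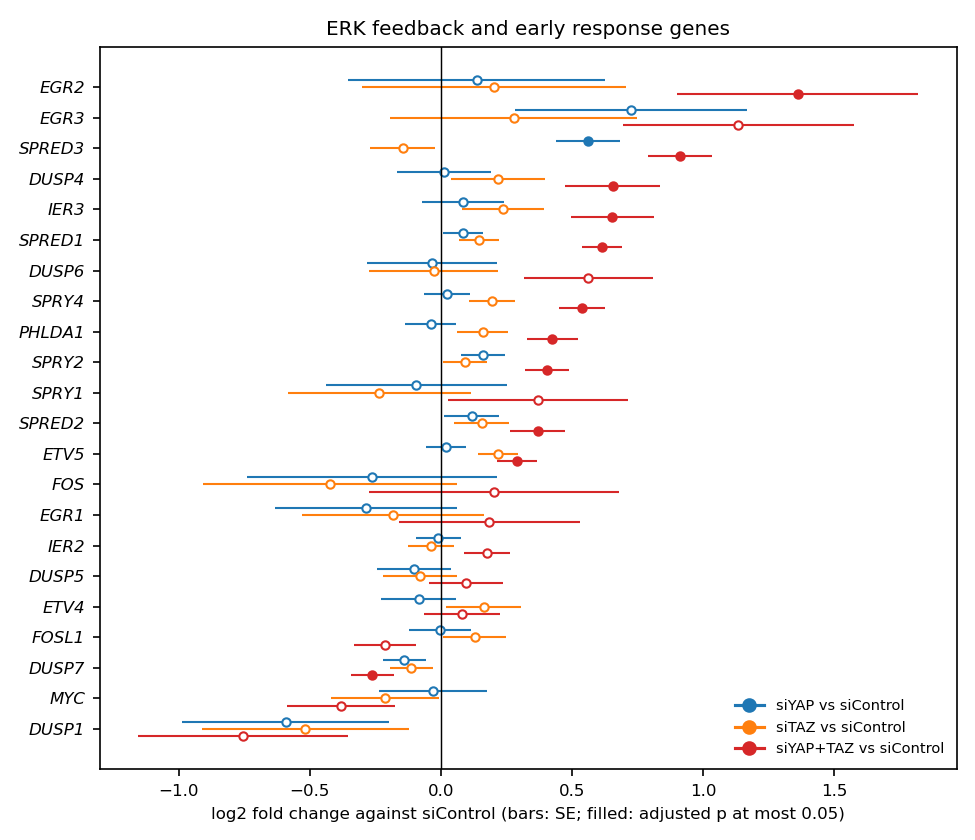
Log2 fold change against siControl of the 22 ERK feedback and early response genes in siYAP, siTAZ and siYAP+TAZ, with SE bars from edgeR, ordered by the siYAP+TAZ value. Filled points mark an adjusted p of at most 0.05 and number 1 for siYAP, 0 for siTAZ and 11 for the co-knockdown.

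Of 4 listed genes that release the ligands 3 rose in siYAP+TAZ and 0 fell, where 9.97% of all genes rose. ADAM17, the protease that sheds AREG, EREG, HBEGF and TGFA, rose from 641 ± 45.7 to 785 ± 57.4 normalized counts (log2 fold change 0.29 ± 0.09, adjusted p = 0.0289, edgeR). RHBDF2 and RHBDF1, which encode the iRhom proteins that ADAM17 needs for its maturation, rose by 0.58 ± 0.175 (adjusted p = 0.0342) and 0.38 ± 0.082 (adjusted p = 0.00335). ADAM10, which sheds other ligands of the family, did not pass (0.13, adjusted p = 0.449). Against untransfected Control cells 0 of these 4 passed in edgeR, with 2 at an unadjusted p under 0.05, where 19.4% of all genes passed and 31.6% had such a p, so their calls depend on which control is used.

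Of 6 further ligands listed, 3 had a row in the table and 1 rose in siYAP+TAZ, where 9.97% of all genes did. NRG2, a neuregulin that binds ERBB3 and ERBB4, had 17.9, 25.0 and 8.6 normalized counts in siControl and 71.3, 84.9 and 91.8 in siYAP+TAZ, a log2 fold change of 2.24 ± 0.303 (adjusted p = 5.34e-05, edgeR). Its counts in siYAP (36.8, 41.3 and 51.3) and siTAZ (31.0, 51.6 and 36.0) lay above siControl and below the co-knockdown, and it also passed in siYAP+TAZ against siYAP (0.95, adjusted p = 0.0486) and against siTAZ (1.08, adjusted p = 0.03). BTC, a ligand of EGFR and ERBB4, was at 16.2, 27.7 and 46.1 in siControl and 41.6, 46.2 and 72.5 in siYAP+TAZ and did not pass (0.87, adjusted p = 0.0682, edgeR), but it did against Control (1.01, adjusted p = 0.0391). At under 100 normalized counts in every library, these ligands are scarce next to AREG or HBEGF.

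The relays inside the cell were also counted. Of 25 adaptors and downstream kinases 4 rose and 0 fell in siYAP+TAZ, where 18.4% of all genes passed, with a median log2 fold change of 0.03. They were MAPK3, which encodes ERK1 (0.41, adjusted p = 0.0121), the exchange factors SOS2 (0.39, adjusted p = 0.01) and SOS1 (0.28, adjusted p = 0.0238), and PIK3R1, a regulatory subunit of PI3 kinase (0.31, adjusted p = 0.0231), all by edgeR. Of 12 genes of receptor turnover and inhibition 1 passed, PTPRJ, a receptor phosphatase (0.43, adjusted p = 0.0106, edgeR). Its log2 fold change was 0.34 in siTAZ (adjusted p = 0.112) and -0.39 in siYAP (adjusted p = 0.113), and it passed in siYAP against siTAZ (-0.73, adjusted p = 0.0126) and in siYAP+TAZ against siYAP (0.81, adjusted p = 0.00031, edgeR). In both single knockdowns 0 of the 25 and 0 of the 12 passed, while 3 and 2 of them in siYAP and 5 and 3 in siTAZ had an unadjusted p under 0.05, as did 11.9% and 16% of all genes.

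Over the whole series, total counts ranged from 18696737 to 30107312 (median 22902846), and mitochondrial genes took 1.78% to 5.03%. The mesenchymal markers of this line (VIM, CD44, CAV1, CAV2, MSN and ANXA1) were all present. Of these CAV1 fell in siYAP+TAZ (-0.35, adjusted p = 0.0065, edgeR), and their sum lay between 109600 and 114800 normalized counts in siControl and between 103600 and 120200 in siYAP+TAZ. Of 8 luminal markers ESR1 and CDH1 had no row in the table, PGR and FOXA1 were at 0 to 7 reads in siControl and siYAP+TAZ, and KRT8 (24070 normalized counts in siControl), KRT18 (6184), GATA3 (529.5) and EPCAM (342) were present. The luminal sum lay between 30450 and 32390 in siControl and between 27380 and 34500 in siYAP+TAZ. Of 5 fibroblast markers DCN and PDGFRA had no row, and the sum of the other 3 lay between 236 and 480 normalized counts in siControl and between 484 and 541 in siYAP+TAZ. Of the leukocyte markers CD3E had no row, and the sum of CD14 and PTPRC lay between 18.2 and 23.1 in siControl and between 36.7 and 45.2 in siYAP+TAZ, which was CD14 (1.20 on the log2 scale, adjusted p = 0.00197, edgeR), PTPRC being at 0 to 6 reads. None of the 3 endothelial markers had a row. The part of these markers in the changes of the ligands was not tested, and in bulk RNA fewer cells of a kind and less RNA per cell cannot be told apart.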

How the data were processed

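RNA-seq libraries of 15 samples in 5 groups of 3 were compared. According to the study's methods, the authors trimmed the reads with cutadapt, aligned them to GRCh38 (GENCODE 34) with STAR 2.4.2a in the UTAP pipeline, kept genes with at least 5 reads in 1 sample and deposited raw counts per gene. The 30 other columns of single samples (normalized and rlog values) were not used, nor were the fold changes and p-values of the authors' own comparisons from DESeq2. In the deposited counts 2 cells were rounded to 1.00E+04, neither of them in a gene named here.

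Counts of all 18858 genes and 15 libraries were normalized by TMM (factors 0.943 to 1.03) and tested with edgeR 4.0.16 (robust quasi-likelihood, 1 coefficient per group) in R 4.3.3, with Benjamini-Hochberg adjustment over all genes. Fold changes are ratios of fitted values. Levels per kb used the Ensembl canonical transcript of GENCODE 44. Differences of profiles used log2 CPM with a prior count of 2. On simulated siYAP+TAZ counts (18853 genes, 200 of them changed), edgeR recovered 43 of 65 changes of 0.6 on the log2 scale, 56 of 62 of 1 and 70 of 73 of 1.5, with 8 of 18653 unchanged genes called. The simulated libraries were independent and had the spread that edgeR itself estimated. Far fewer genes were changed than the 3464 called in the data, so these shares do not give the power of the real test. At this depth genes with under 100 reads carry large errors.

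Named were the 9 genes, the siRNA targets, up to 4 genes of each pathway list with the largest changes that passed in siYAP+TAZ against siControl, the 5 genes most like AREG and EREG, and markers near 0. NRG2 belongs to these, and BTC, ADAM10, SPRED3 and PTPRJ in the single knockdowns, DUSP7, AMOTL1 and CD14 were added after their values were seen. The 9 genes and the lists were chosen with earlier results of these data known. Alternatives were DESeq2 1.42.0, limma-voom (limma 3.58.1), DESeq2 size factors, library size alone, at least 10 reads in at least 3 libraries, only the groups compared, a block of library numbers, Control as the reference, and each library left out.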

Additional observations from a re-analysis of the deposited data

Results flagged for a closer look

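HBEGF met the mark of a difference between groups. Its fall in siYAP+TAZ was not matched in siTAZ, and the direct comparison of siYAP+TAZ with siTAZ gave a log2 fold change of -0.31 (SE 0.079, adjusted p = 0.0264, edgeR), with all 3 co-knockdown libraries below all 3 siTAZ libraries. The interval of the difference was -0.48 to -0.15. Leaving out siTAZ library 24 or 29, or any one of the co-knockdown libraries, raised the adjusted p above 0.05. The log2 fold change then stayed between -0.342 and -0.279.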

How the results depend on the processing

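In siYAP+TAZ against siControl, 14 alternatives gave log2 fold changes of 0.84 to 1.28 for AREG, 0.78 to 1.20 for EREG, 0.43 to 0.72 for TGFA, 0.42 to 0.68 for ERRFI1 and -0.41 to -0.30 for HBEGF. The direction of these 5 was the same in all 14. HBEGF and TGFA passed in 14 of 14, AREG in 13 (not with only the groups compared, adjusted p = 0.0656), EREG in 13 (adjusted p up to 0.0536) and ERRFI1 in 10 (up to 0.0614, edgeR). With only the groups compared, which leaves fewer libraries to estimate the spread, 3 of the 9 genes passed in siYAP+TAZ against siControl (19.1% of all genes), 2 against siYAP (3.97%) and 2 against siTAZ (3.2%). DESeq2 called 1 gene in siYAP (2.12% of all genes) and 2 in siTAZ (4.25%) against siControl, and in siYAP+TAZ 1 against siYAP (6.85%) and 2 against siTAZ (6.99%). limma-voom and the filter of at least 10 reads each called 1 in siYAP+TAZ against siYAP (5.77% and 7.04% of the genes tested). The cause of these differences was not tested. With 1 library left out, the count was 3 to 5 in siYAP+TAZ against siControl (13.3% to 15.5% of all genes), 0 in siYAP (0.143% to 0.726%), 0 to 1 in siTAZ (0.361% to 4.78%), 0 to 1 for siYAP+TAZ against siYAP (2.12% to 3.6%) and 0 to 1 against siTAZ (2.47% to 5.03%), the lowest of 3 being without siYAP+TAZ library 25. Apart from the block given next, other settings left these counts within 1.5 times.

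The labels give no replicate number shared between groups. As a hint from the data only, 26 of 30 pairs of libraries within a run of consecutive numbers deviated together with a correlation over 0.1 (median 0.402, lowest -0.0571, against a median of -0.332 between runs), and 10 of 15 libraries correlated best with their own run, so not every pair passed and no pairing was assumed. A block of these runs raised the calls over all genes too. It called 3 of the 9 genes in siYAP (HBEGF, TGFA and ERRFI1, with 6.1% of all genes against 0.933% without the block), 2 in siTAZ (EREG and TGFA, with 10.3% against 2.03%), 4 in siYAP+TAZ against siYAP (AREG, EREG, TGFA and ERRFI1, with 14.6% against 5.13%), 3 against siTAZ (HBEGF, ERBB2 and ERRFI1, with 14.8% against 5.44%) and 2 in siYAP against siTAZ (ERBB2 and HBEGF, with 7.32% against 0.642%). Precision was limited for ERBB3, at 33.4 to 55.1 normalized counts.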
